A study of Mus musculus with 14 samples.

Results

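The genes described here are those whose levels separated tumours with TAZ knockdown (shTAZ) from tumours with a control hairpin (shC) completely, so that the lowest tumour of 1 group lay above the highest of the other. Among the 13414 genes listed for the tumours, 9348 had a mean raw count of at least 20 per library, and 217 of these separated the groups, 116 higher and 101 lower in the shTAZ tumours. Levels were compared as log2 CPM (CPM being counts in each 1000000 of the library size, scaled by the trimmed mean of M-values, TMM, with a prior count of 2). Since the separation of the 8 tumours chose these genes, their values in the tumours are a description, and only the 6 cultures of the same cells, which the choice did not use, can test them.

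The tumours grew from 4T1 cells, a mammary carcinoma line of the BALB/c mouse, grown in the mammary fat pad of BALB/c females aged 8 weeks. Both groups carried a lentiviral, doxycycline-inducible hairpin, against TAZ (shTAZ) or scrambled (shC), as puromycin-selected cell pools rather than clones, and by the study's methods both groups received doxycycline, in chow at 625 mg per kg until excision after 6 weeks, whereas the labels name no treatment for either. By the study's account shC and shTAZ cells alike were kept with doxycycline for 48 h in culture. Its results and figure legends give 6 µM, whereas its methods give 6 mM. Total RNA of the tumours and of 3 shC and 3 shTAZ cultures was profiled by a bulk form of MARS-seq, which reads the 3′ ends of transcripts. Only the injected cells carried the hairpins, whereas the tumour libraries also hold RNA of the host's immune, stromal and vessel cells, so that for any gene below, fewer cells of a type and less RNA per cell cannot be told apart.

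TAZ, encoded by Wwtr1, is a transcriptional coactivator that binds TEAD factors at their DNA sites and shares this role with its paralogue YAP. The Hippo pathway restrains both: the kinases Lats1 and Lats2 phosphorylate them and hold them out of the nucleus, and Vgll4 competes with them for TEAD. Lats2 is itself a well known target gene of YAP and TAZ.

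The hairpin sequences are shown because they define the groups, with bases 2 to 8 from the first listed base in capitals, the stretch that would be the seed if the listed strand is the guide. The site in Wwtr1 follows, with the bases that pair with that stretch in capitals.
shTAZ: gACGGGTGgaggttcacat
shC: cACACAACatgtaaaccaggga
Wwtr1 site: atgtgaacctcCACCCGTc

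The listed shTAZ sequence of 19 bases is the complement of Wwtr1 mRNA and matched 2 Wwtr1 transcripts and no other gene among the GENCODE M21 transcripts, on either strand. The site lies at chr3:57501788-57501806 (GRCm38, minus strand), in exon 3 and within the coding sequence, at bases 726 to 744 of the longest transcript of 4697 bases. The shC sequence of 22 bases matched no transcript on either strand. The complement of the capital stretch in shTAZ, CACCCGT, was found in the 3′ untranslated region of 3 of 114 higher members (2.63%), 5 of 98 lower members (5.10%) and 266 of 9177 genes at this count limit (2.90%), which is a description of sequence and not evidence of binding.

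Total counts ran from 1659736 to 3179767 in 7 tumours, and shC tumour 1 stood apart at 22364483. A single read was therefore worth 0.0421 CPM in shC tumour 1 and between 0.316 and 0.611 CPM in the other tumours, so low values are coarse everywhere but there. The epithelial markers of the injected cells (Epcam, Krt8, Krt18, Cdh1, Cldn3 and Cldn4) summed to 3406 to 5766 CPM in shC and 3130 to 4074 CPM in shTAZ tumours. Other tissue was uneven: keratinocyte markers (5 of 5 listed) summed to 4589 and 3528 CPM in shTAZ tumours 3 and 4 and to at most 174.9 CPM elsewhere, and urothelial and smooth muscle markers to 2713 CPM in shC tumour 2 and at most 17.74 CPM elsewhere. No B cell marker of 3 was listed, and no marker sum of the 13 cell types separated the groups.

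Separated genes were a small share of the whole table. With 4 tumours per group some genes separate without any effect of the hairpin, so the number of members is no evidence of a response. The higher members made up 1.24% and the lower members 1.08% of the 9348 genes at the count limit. In edgeR's quasi-likelihood test across 9196 genes, which passed filterByExpr, none had a Benjamini-Hochberg adjusted p under 0.05 (0%), while 366 had an unadjusted p under 0.05, 140 higher and 226 lower in shTAZ tumours. DESeq2 called 4 of 9170 genes (0.0436%), Fcrls, Clec4a1, Adamdec1 and Ibsp, all among the 217, and had 381 genes under 0.05 unadjusted. The 206 members in the edgeR fit had a median log2 fold change (shTAZ over shC throughout) of 0.45 for the 115 higher ones, from 0.12, and of -0.58 for the 91 lower ones, against a median of -0.01 over all genes tested. Most large changes were in other genes: 338 of the 371 genes with an absolute log2 fold change of at least 1 (fit without the filter) had overlapping groups.

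**Figure D1:**
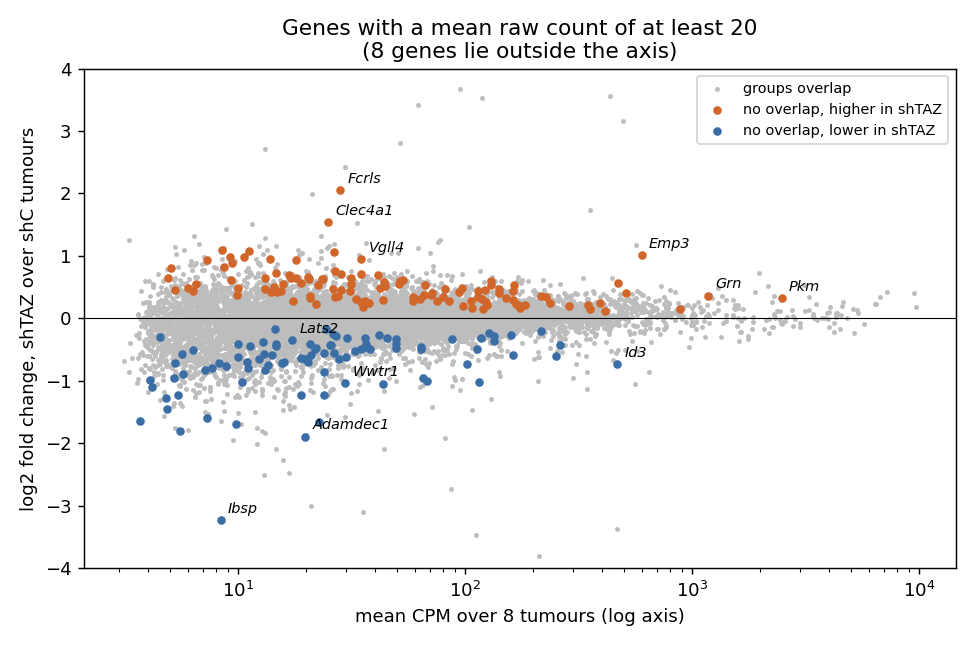
Each point is a gene with a mean raw count of at least 20 that edgeR could fit, placed by its mean CPM over the 8 tumours (x, log axis) and its log2 fold change (y). Orange and blue points are members higher and lower in shTAZ tumours, and grey points are genes whose groups overlapped, among them most of the large changes; 8 genes lie beyond an absolute value of 4.

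Wwtr1, the target of the hairpin, was among the lower members. It read 60.2, 28.9, 42.4 and 27.5 CPM in shC tumours 1 to 4 and 22.1, 13.1, 17.1 and 25.6 CPM in shTAZ tumours 1 to 4. The groups did not overlap, but shC tumour 4 and shTAZ tumour 4 were close to each other. The log2 fold change was -1.03 (SE 0.30, n = 4 per group; edgeR adjusted p = 0.923), with means of 39.8 ± 15.2 and 19.5 ± 5.51 CPM (SD), and ran from -1.18 to -0.74 when each tumour was left out in turn.

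In the 6 cultures Wwtr1 was the single gene past the threshold, 1 of 9828 tested (0.0102%). Its levels were 40.7, 29.7 and 25.6 CPM in shC cells 1 to 3 and 8.07, 10.4 and 6.01 CPM in shTAZ cells 1 to 3. Every shTAZ culture lay below every shC culture, and the log2 fold change was -2.11 (SE 0.32; edgeR with 1 surrogate variable, adjusted p = 0.0356), or -1.96 (adjusted p = 0.00539) with the culture number as a block, a fit in which 6 genes passed. Without the surrogate variable it was -1.99 (adjusted p = 1), and leaving out 1 culture at a time gave -2.29 to -1.92 with adjusted p between 0.0944 and 1, so the size held while the call was lost in each of these 7 fits. At an unadjusted p under 0.05 the same test held 386 genes.

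Of a fixed list of Hippo pathway components, 3 of 20 at the count limit were members, 1 of them Wwtr1, the target itself. Over all genes at that limit 1.24% were higher and 1.08% lower members. Vgll4, the competitor of TAZ for TEAD, was higher: 19, 30.9, 25.8 and 20.3 CPM in shC against 52.7, 42.2, 33 and 55.1 CPM in shTAZ. All 4 shTAZ tumours exceeded the highest shC tumour, at a log2 fold change of 0.95 (SE 0.23), and the value was almost equal in the tumours coded FG (0.94) and FM (0.95), a prefix that the labels do not explain and that 2 tumours of each group carry. Lats2, the kinase, was lower by a small amount: 21, 19.6, 20.8 and 16.3 CPM in shC against 14.5, 15.6, 15.9 and 15 CPM in shTAZ, which gave -0.35 (SE 0.21). The annotation places a gene model, Gm49361, on exons of Lats2 on the same strand, so these reads could be shared. In the cultures Vgll4 was low, at a mean of 3.35 CPM with a log2 fold change of 0.35 (SE 0.63), and Lats2 gave -0.35 (SE 0.31), neither past the threshold (edgeR adjusted p = 1 for each).

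The other Hippo components of this list overlapped between groups, while Stk38l, a kinase of the Lats2 family described below, is a lower member outside the list. Of the 20, 16 had a log2 fold change below 0 with a median of -0.16, and of 20 known YAP and TAZ target genes 17 were below 0 with a median of -0.26 and 1, Lats2, was a member. Over all 9348 genes 5068 were below 0 and the median was -0.03 (fit without the filter).

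The promoters of these 3 members, 250 bases before to 50 bases after the RefSeq start (GRCm38.p6), are shown because each holds the core of the TEAD site, GGAATG, printed in capitals. The search took GGAATG and its reverse complement CATTCC, which share no overlap here, and found at least 1 of them in 3955 of 27025 promoters of this length (14.6%).
Wwtr1: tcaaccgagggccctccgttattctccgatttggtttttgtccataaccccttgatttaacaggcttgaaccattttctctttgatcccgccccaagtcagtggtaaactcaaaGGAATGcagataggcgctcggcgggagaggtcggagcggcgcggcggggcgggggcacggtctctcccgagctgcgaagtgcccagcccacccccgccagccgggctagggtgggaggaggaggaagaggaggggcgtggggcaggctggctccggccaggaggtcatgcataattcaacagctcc
Vgll4: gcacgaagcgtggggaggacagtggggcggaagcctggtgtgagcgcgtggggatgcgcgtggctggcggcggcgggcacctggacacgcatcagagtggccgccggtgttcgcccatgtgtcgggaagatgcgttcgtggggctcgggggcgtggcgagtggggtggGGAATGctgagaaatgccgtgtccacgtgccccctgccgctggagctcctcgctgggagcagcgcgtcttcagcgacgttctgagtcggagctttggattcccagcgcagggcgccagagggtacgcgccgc
Lats2: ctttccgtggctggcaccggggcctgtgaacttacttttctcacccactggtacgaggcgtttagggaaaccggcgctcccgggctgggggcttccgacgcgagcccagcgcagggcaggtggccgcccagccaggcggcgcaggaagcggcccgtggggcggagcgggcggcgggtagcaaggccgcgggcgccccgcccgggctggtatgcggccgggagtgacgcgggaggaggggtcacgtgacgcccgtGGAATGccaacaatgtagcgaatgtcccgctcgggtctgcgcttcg

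These windows are chr3:57575861-57576160 for Wwtr1, chr6:114969154-114969453 for Vgll4 and chr14:57746074-57746373 for Lats2, all on the minus strand, so the sequences above read in the direction of the gene. The motif began at position -136 in Wwtr1, -82 in Vgll4 and 4 in Lats2, counted from 0 at the start. Promoters were matched for 97 of 116 higher but only 74 of 101 lower members, fewer than 80%, so no share of members with the motif is given.

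Several of the larger differences among the higher members were in genes of macrophages and other myeloid cells. Fcrls, an Fc receptor-like scavenger gene expressed by mouse macrophages and microglia, read 13.4, 11.7, 13.1 and 5.07 CPM in shC and 30, 60.6, 35.4 and 56.4 CPM in shTAZ tumours. Its lowest shTAZ tumour was above 2 times the highest shC tumour, and its log2 fold change of 2.06 (SE 0.34) stayed between 1.84 and 2.22 when a tumour was left out. The DESeq2 fit called it (adjusted p = 5.6e-05), whereas its edgeR adjusted p was 0.432.

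Clec4a1, a C-type lectin receptor of myeloid cells, read 10.5, 18.9, 13.6 and 8.33 CPM in shC and 26.2, 24.2, 47.6 and 50 CPM in shTAZ tumours. The difference was uneven between the code prefixes, with a log2 fold change of 0.79 within FG and 2.17 within FM tumours, against 1.54 (SE 0.34) over all and 1.36 to 1.78 with a tumour left out. DESeq2 gave an adjusted p of 0.0357. Siglec1 (CD169), the sialic acid-binding lectin of resident macrophages, was at 8.92, 17.5, 15.7 and 7.97 CPM in shC and 20.5, 28.7, 20.2 and 24.3 CPM in shTAZ tumours (0.93, SE 0.31).

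Further genes known from myeloid or other white blood cells, grouped after their values were seen, were in the higher set with smaller values. Lower members also include genes known from such cells, among them Adamdec1 and Fmnl1, whose values are given below, Dapp1 and Nfatc1. These were not counted beside the higher ones, so no direction of white blood cell genes as a set is given. Stab1, a scavenger receptor of macrophages, was at 111, 123, 108 and 74.2 CPM in shC and 161, 144, 154 and 167 CPM in shTAZ tumours, a narrow spread within shTAZ (log2 fold change 0.59, SE 0.17). Grn, the precursor of progranulin and a lysosomal and secreted protein, was among the 4 most abundant higher members at 1029, 1122, 1073 and 905 CPM in shC and 1279, 1144, 1322 and 1548 CPM in shTAZ tumours (0.36, SE 0.14). Rac2, a small GTPase of blood cells, gave 5.6, 4.47, 5.08 and 4.71 against 8.21, 6.55, 15.3 and 8.54 CPM, and its log2 fold change of 0.93 was 0.62 without shTAZ tumour 3, the highest. Hcls1, an actin regulator of blood cells, Pik3r5, a regulatory subunit of PI3K gamma, Fes, a tyrosine kinase of myeloid cells, and the transcription factor Maf had log2 fold changes of 0.47, 0.63, 0.32 and 0.64, and that of Maf rested most on shTAZ tumour 3 (0.35 without it).

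The adhesion and lymphoid genes in the higher set, likewise grouped after their values were seen, were low in level. Itgae (CD103), the integrin alpha chain of intraepithelial T cells and some dendritic cells, read 4.71, 6.19, 5.08 and 5.79 CPM in shC and 6.63, 14.7, 15.9 and 8.97 CPM in shTAZ tumours (log2 fold change 1.09, SE 0.35). Its shTAZ values were spread widely while the shC values were tight. Itgb7, the beta chain that pairs with it, followed with 14.7, 11.7, 8.05 and 9.41 against 15.5, 15.6, 22 and 20.9 CPM (0.73, SE 0.27). Pou2f2 (Oct2), a transcription factor of B cells and myeloid cells, was at 5.51, 6.19, 10.6 and 6.88 against 12.3, 15.2, 14 and 18.4 CPM (1.07, SE 0.30), and a microRNA gene, Mir6537, shares its exons on the same strand. Spn (CD43), a sialoglycoprotein of leukocytes, was the steadiest higher member under leave-one-out, at 22.9, 22, 22.9 and 30.8 against 35.4, 41.4, 34.2 and 41.9 CPM (0.65, from 0.60 to 0.76).

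Of the fixed lists, 27 macrophage genes met the count limit, 24 had a log2 fold change above 0 with a median of 0.42, and 3 were members, Fcrls, Clec4a1 and Siglec1. The list of 16 neutrophil genes held no member and that of 15 T and NK cell genes held 1, Itgae. The 7 macrophage markers summed to 3742, 6851, 7101 and 4107 CPM in shC and 6230, 6834, 7947 and 8880 CPM in shTAZ tumours. These sums overlapped, 6 of the 7 had the higher mean in shTAZ tumours, none was a member, and in the cultures the 5 that were listed summed to 29.8 CPM. Their part in the myeloid members was not tested.

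A group of cell cycle genes, put together after their values were seen, was higher and leaned on shC tumour 1. Ccne1 (cyclin E1), which drives entry into S phase, read 3.7, 9.97, 7.63 and 7.97 CPM in shC and 13.3, 14.7, 15.3 and 12.4 CPM in shTAZ tumours. Its log2 fold change of 0.98 (SE 0.34) was 0.71 without shC tumour 1, which was the lowest. Tcf19, a gene of the G1 to S transition, the condensin subunit Ncaph and the Cdk1-inhibiting kinase Pkmyt1 showed the same layout, with shC tumour 1 at 10.7, 9.81 and 16.9 CPM against 22 to 25.4, 23.9 to 28.8 and 34.8 to 38.6 CPM in the other shC tumours. Without that tumour the log2 fold changes of these 3 went from 0.76 to 0.53, from 0.71 to 0.43 and from 0.69 to 0.46. Of 27 proliferation genes at the count limit 27 were above 0 with a median of 0.35, although 1, Ccne1, was a member. This count was not repeated without shC tumour 1.

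The metabolic and transport genes included some of the cleaner separations. Slc27a3, a fatty acid transport protein and acyl-CoA synthetase, read 16.5, 17.2, 20.3 and 14.5 CPM in shC and 24, 43.4, 36.7 and 38.4 CPM in shTAZ tumours (log2 fold change 1.07, SE 0.23). Slc2a6 (GLUT6), a lysosomal sugar transporter of the glucose transporter family, was at 7.16, 7.56, 11.9 and 11.6 against 17.1, 20.1, 20.2 and 15.4 CPM (0.96, SE 0.27). Slc13a3, a carrier of dicarboxylates, was at 3.33, 7.22, 6.78 and 7.97 against 12.9, 10.2, 10.4 and 14.5 CPM (0.99, SE 0.34), or 0.73 without shC tumour 1. Slc13a3 thus leaned on the deep shC library more than the other carriers. Of 139 Slc genes at the limit 63 had a log2 fold change above 0, with 4 higher and 3 lower members.

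Pkm, the pyruvate kinase of glycolysis and the most abundant member, sat at the edge of the rule. Its shC tumours read 2023, 2236, 2318 and 2275 CPM and its shTAZ tumours 3246, 2319, 2699 and 2741 CPM, and the highest shC and lowest shTAZ tumours differed by 0.00036 in log2 CPM. Among other abundant members, Emp3, a small membrane protein, read 435, 475, 454 and 227 CPM in shC and 498, 565, 1023 and 1114 CPM in shTAZ tumours, with shTAZ tumours 3 and 4 well above the rest (log2 fold change 1.01, SE 0.31). These are the tumours in which keratinocyte markers summed to 4589 and 3528 CPM, and their part in this difference was not tested. Arhgdia, an inhibitor of small GTPases, was at 763, 893, 815 and 896 against 933, 906, 912 and 947 CPM, a log2 fold change of 0.14. Pfn1 (profilin), which feeds actin filaments, was at 160, 495, 475 and 399 against 501, 631, 584 and 532 CPM, and its 0.56 was 0.31 without shC tumour 1.

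Genes of mitochondria and of protein synthesis, picked out after their values were seen, were members in both directions. Eif3b, a subunit of the initiation factor eIF3, gave the smallest log2 fold change of the higher members at 0.12, from 387, 400, 394 and 408 to 418, 451, 420 and 430 CPM. The ribosome assembly factor Eif6 (0.25), the import channel Tomm40 (0.34), the cytochrome oxidase subunit Cox5a (0.21) and the lipid carrier protein Prelid1 (0.41) were of like size. Of 60 mitochondrial ribosomal protein genes, Mrpl36, Mrpl43 and Mrps11 were members (0.40, 0.16 and 0.28), and Mrps11 was at 0.13 without shC tumour 1. Lower members of the same kinds were Eif2s3x, a subunit of the initiation factor eIF2 (-0.86), the mitochondrial phosphatase Pgam5 (-0.52), Pmpca, a subunit of the peptidase that trims imported proteins (-0.27), and the import receptor Tomm20, which was too low for a fit at 6.02, 3.44, 5.93 and 5.79 against 2.53, 2.46, 0.611 and 2.14 CPM. Eif2s3x, at 41.1, 21.7, 26.3 and 34.8 against 18, 18.4, 14.7 and 16.7 CPM, had the largest of these changes, and its reads may be shared with copies. None of 76 cytoplasmic ribosomal protein genes was a member, and 33 of them were above 0.

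Hoxa7, a homeobox factor, was among the 4 steadiest higher members, at 37.5, 43.7, 40.3 and 44.2 CPM in shC and 59, 59.8, 64.7 and 58.5 CPM in shTAZ tumours (log2 fold change 0.56, from 0.51 to 0.59 with a tumour left out). Adrbk2, a kinase of G protein-coupled receptors, was at 4.88, 5.85, 4.66 and 4.71 against 7.58, 6.55, 7.33 and 6.41 CPM (0.48, from 0.44 to 0.56). Hspb2, a small heat shock protein whose exons overlap Cryab on the other strand, was at 11.7, 12, 12.7 and 11.6 against 17.4, 15.2, 14 and 17.5 CPM (0.43, from 0.39 to 0.47). In each of these the values within a group lay close together. Among the steadiest lower members was 1110059E24Rik, at 10.9, 12.4, 13.6 and 11.9 against 8.53, 6.96, 7.33 and 8.54 CPM (-0.62, from -0.67 to -0.56).

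**Figure D2:**
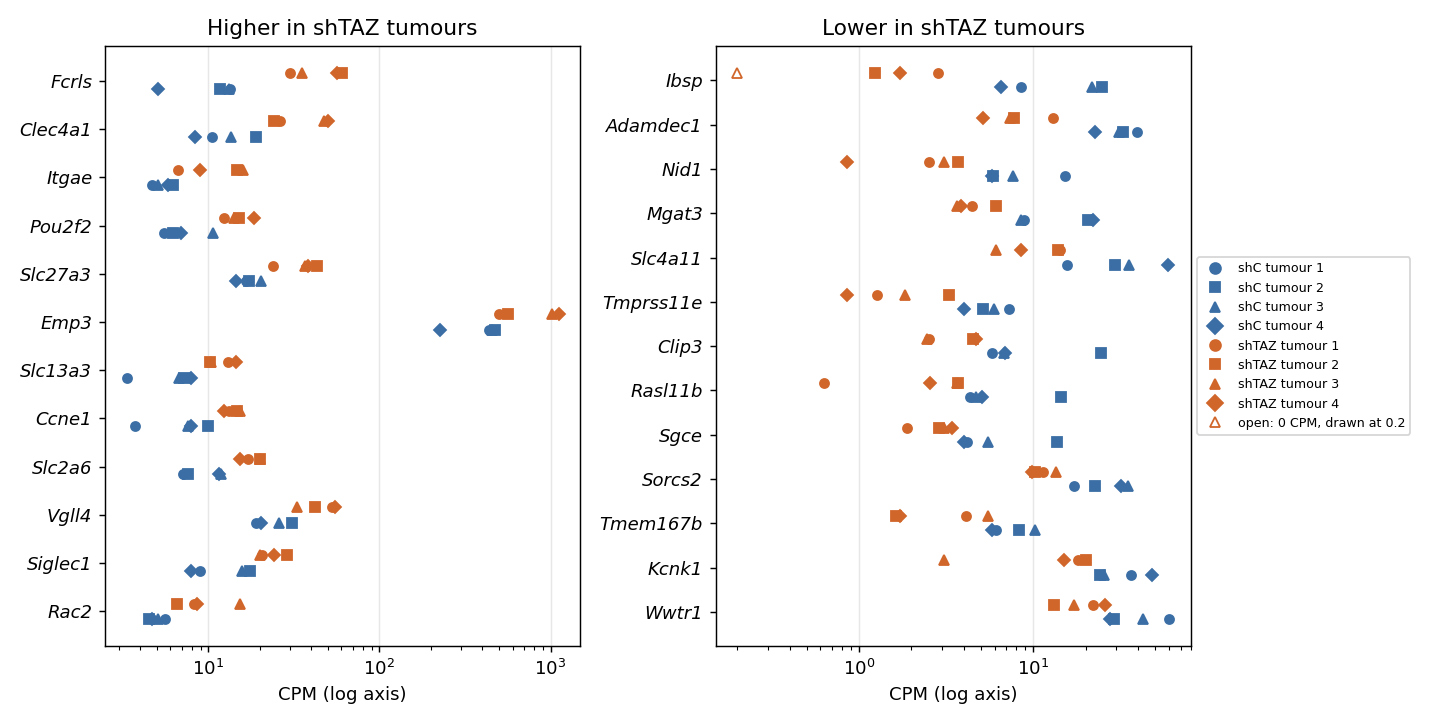
CPM (x, log axis) of the 12 members with the largest log2 fold change in each direction and of Wwtr1, with 1 marker per tumour, shC in blue and shTAZ in orange. In every gene the colours do not cross; Sgce, Rasl11b and Clip3 show shC tumour 2 alone at the right, and Ibsp shows shTAZ tumour 3 at 0.

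In the lower direction the largest change among fitted members was in Ibsp, bone sialoprotein, a glycoprotein of mineralized matrix. It read 8.46, 24.8, 21.6 and 6.52 CPM in shC tumours (201, 72, 51 and 18 reads) and 2.84, 1.23, 0 and 1.71 CPM in shTAZ tumours (9, 3, 0 and 4 reads). The log2 fold change was -3.23 (SE 0.66), from -3.80 to -2.89 with a tumour left out, and DESeq2 called it (adjusted p = 0.00234) while edgeR did not (0.923). It was the only member among 8 bone and mineralized matrix genes at the limit, whose median was -0.24.

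Adamdec1, a secreted metalloprotease of the ADAM family, read 39.2, 32.7, 30.9 and 22.4 CPM in shC and 12.9, 7.78, 7.33 and 5.13 CPM in shTAZ tumours. The 2 groups were well apart, and among the lower members this gene kept the most of its change under leave-one-out, with a log2 fold change of -1.89 (SE 0.31) between -2.21 and -1.71. Its adjusted p was 0.00013 by DESeq2 and 0.432 by edgeR. Nid1 (nidogen), which links laminin and collagen IV in basement membranes, was at 15.2, 5.85, 7.63 and 5.79 against 2.53, 3.69, 3.05 and 0.854 CPM, and its -1.81 became -1.32 without shC tumour 1. None of 23 fibroblast and matrix genes or 13 endothelial genes was a member.

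Il23a, which encodes the p19 subunit of the cytokine interleukin-23, was the sole member among 30 cytokine and chemokine genes. It read 19, 23, 29.2 and 26.1 CPM in shC and 17.4, 16, 9.16 and 18.4 CPM in shTAZ tumours. The gap was narrow, from 18.4 to 19 CPM, and the log2 fold change of -0.65 (SE 0.26) ran from -0.75 to -0.49 with a tumour left out, -0.34 within FG and -0.97 within FM tumours. In the cultures it was spread widely within both groups, at 9.65, 14.6 and 50.6 CPM in shC and 9.02, 24.6 and 31.6 CPM in shTAZ cells.

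Genes of ion transport and of epithelial cells made up several of the larger negative values. Slc4a11, a membrane transporter of the corneal endothelium and of epithelia, read 15.5, 29.6, 35.6 and 59 CPM in shC and 14.2, 13.9, 6.11 and 8.54 CPM in shTAZ tumours (log2 fold change -1.65, SE 0.42). Kcnk1 (TWIK-1), a potassium channel, was at 36.5, 24.1, 25.4 and 48.2 against 18, 20.1, 3.05 and 15 CPM (-1.22, SE 0.42). Tmprss11e, a membrane serine protease of epithelia, was at 7.24, 5.16, 5.93 and 3.98 against 1.26, 3.28, 1.83 and 0.854 CPM (-1.65, SE 0.44). The lowest shTAZ tumour was number 3 for the first pair and number 4 for the protease.

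Gpa33, an intestinal cell surface antigen of the immunoglobulin family, was higher in level, at 288, 264, 331 and 330 CPM in shC and 231, 263, 114 and 185 CPM in shTAZ tumours (-0.60, SE 0.23). Its highest shTAZ tumour and lowest shC tumour were almost level. Gprc5a, a retinoic acid-induced receptor of epithelia, gave -1.05, or -0.60 without shC tumour 4, which at 107 CPM was above 2 times the other shC tumours. The epithelial list of 16 genes held no member, 15 of the 16 were below 0 and their median was -0.72, and the part of the number of tumour cells in these members was not tested.

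Other lower members with large values were genes of varied function. Mgat3, the enzyme that adds the bisecting N-acetylglucosamine to N-glycans, read 8.8, 20.6, 8.47 and 22.1 CPM in shC and 4.42, 6.14, 3.67 and 3.84 CPM in shTAZ tumours (log2 fold change -1.69, SE 0.41). Sorcs2, a sorting receptor for neurotrophins, was at 17, 22.7, 35.2 and 31.9 against 11.4, 10.2, 13.4 and 9.82 CPM (-1.23, SE 0.28). Tmem167b, a small membrane protein, was at 6.1, 8.25, 10.2 and 5.79 against 4.1, 1.64, 5.5 and 1.71 CPM (-1.23, SE 0.44). Sorcs2 had the tightest shTAZ values of the 3.

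Clip3, Rasl11b and Sgce formed a set apart, since each rested on shC tumour 2. Clip3, a linker of membranes to microtubules, read 5.81, 24.4, 6.78 and 6.88 CPM in shC and 2.53, 4.51, 2.44 and 4.7 CPM in shTAZ tumours. Rasl11b, a small GTPase of the Ras family, read 4.34, 14.4, 4.66 and 5.07 against 0.632, 3.69, 3.67 and 2.56 CPM. Sgce (epsilon-sarcoglycan), a membrane protein with a role in muscle, read 4.17, 13.8, 5.51 and 3.98 against 1.89, 2.87, 3.05 and 3.42 CPM. Without shC tumour 2 the log2 fold changes went from -1.59 to -0.84, from -1.46 to -0.86 and from -1.27 to -0.68, and it is in this tumour that the urothelial and smooth muscle markers (5 of 5 listed) were high; their part was not tested.

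Abundant lower members were a mixed set. Id3, an inhibitor of basic helix-loop-helix factors and a target of BMP signals, was the most abundant at 700, 580, 562 and 493 CPM in shC and 433, 421, 193 and 350 CPM in shTAZ tumours (log2 fold change -0.73, SE 0.24). Aplp2, a relative of the amyloid precursor protein, was at 302, 290, 296 and 314 against 221, 271, 180 and 213 CPM (-0.43, SE 0.15). Fmnl1, a formin that nucleates actin, was at 231, 230, 219 and 246 against 203, 195, 190 and 214 CPM (-0.20, SE 0.12). In these last 2 the shC tumours were within a tight band and shTAZ tumour 3 was lowest.

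A few pairs of paralogues, picked out after their values were seen, split across the directions (log2 fold changes in brackets): the endosomal GTPases Rab4b (0.44) and Rab4a (-0.18), the retromer subunits Vps26b (0.64) and Vps26a (-0.32), and the endocytic adaptors Epn1 (0.25) and Epn2 (-0.36). Vps26a kept -0.15 and Epn2 -0.23 without shC tumour 1.

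**Figure D3:**
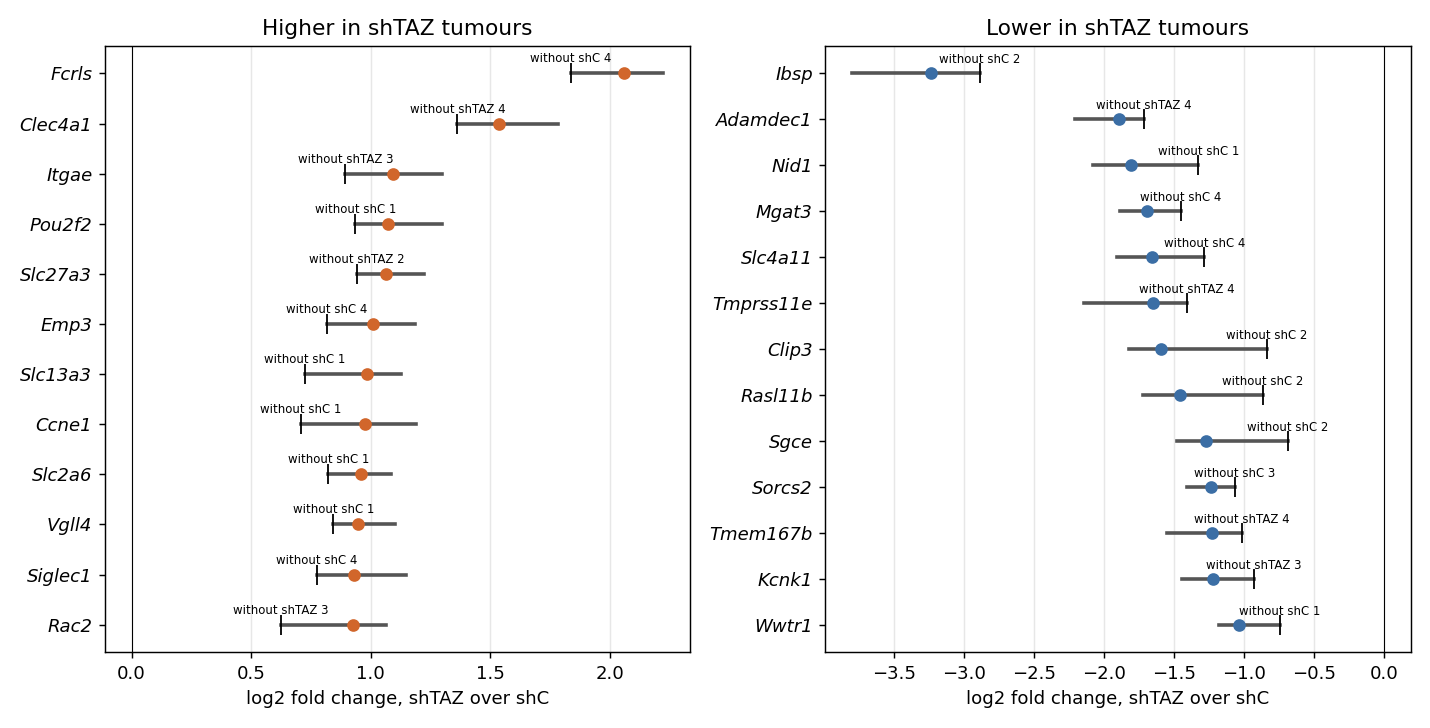
Log2 fold change over all 8 tumours (points) for the same genes, with bars from the lowest to the highest value when each tumour was left out in turn and a tick at the value nearest 0, labelled with the tumour left out. The side of 0 follows from how the members were chosen; the values nearest 0 for Clip3, Rasl11b and Sgce are those without shC tumour 2.

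The choice of members fixes the direction when a tumour is left out, so only the size was compared in the 206 fitted members. The weakest of the 8 values kept a median share of 0.785 of the full log2 fold change in the higher and 0.772 in the lower members. It kept at least 80% in 49 of 115 higher and 37 of 91 lower members, and less than 0.667 of it in 15 and 18. The tumour whose removal weakened the change most was shC tumour 1 in 61 of the 206, shTAZ tumour 4 in 34 and shTAZ tumour 3 in 33. Magt1, an oligosaccharyltransferase subunit and magnesium transporter, was an extreme case: it read 28.8, 13.8, 13.1 and 11.2 CPM in shC against 10.1, 9.01, 10.4 and 8.97 CPM in shTAZ tumours, and its -0.82 became -0.39 without shC tumour 1.

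The deep library also weighed on who met the count limit. In shC tumour 1 lay the lowest value of its group for 55 of 116 higher members and the highest for 45 of 101 lower members. Taken over the other 7 tumours, the mean raw count was at least 20 for 109 of the higher but 75 of the lower members. With shC tumour 1 left out of the comparison, 108 of the 116 and 62 of the 101 were again separated at that limit, among 205 higher and 147 lower genes. Scaled by total counts instead of TMM, 87 genes were higher (78 of them members) and 127 lower (89 members), so the share of higher genes was 40.7% in place of 53.5%.

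In 11 members counts were too low for the edgeR filter, 1 higher and 10 lower, and no log2 fold change is given for them. Fcgbp, a mucin-like protein of epithelial mucus, had 3, 0, 0 and 1 reads in shC and 3, 7, 58 and 122 reads in shTAZ tumours, that is 0.126, 0, 0 and 0.362 against 0.947, 2.87, 35.4 and 52.1 CPM. It was thus high in the 2 tumours with keratinocyte markers, shTAZ 3 and 4, and at a few reads in the other 6; their part was not tested. Pds5b, a cohesin regulator, had 168 reads in shC tumour 1, between 4 and 7 in the other shC tumours, and 3, 3, 0 and 1 in shTAZ tumours. Stk38l (NDR2), a kinase of the same family as Lats2, had 149, 4, 4 and 4 against 1, 3, 1 and 3 reads, or 6.27, 1.38, 1.69 and 1.45 against 0.316, 1.23, 0.611 and 1.28 CPM, so that its separation outside shC tumour 1 came down to single reads.

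At the limits of the rule the members shaded into the rest. Stard10, a lipid transfer protein, at 85.6, 146, 102 and 181 CPM in shC and 78.3, 85.6, 59.3 and 82.9 CPM in shTAZ tumours, and Pmepa1, an inhibitor of TGF-beta signals, at 172, 167, 185 and 174 against 137, 138, 133 and 167 CPM, were separated by 0.00029 and 0.00081 in log2 CPM. Just outside, Gnb2, March8 and Elf1 had gaps of -0.00092, -0.0024 and -0.0029, that is a small overlap. On the count limit Ptprv and Stk38l (21.1 reads each) and Faah (21.4) were inside, and Pex19 (18.8), Nexn (17.4) and Fndc5 (17.1) were separated but outside. Faah, the hydrolase of fatty acid amides, read 6.06, 1.72, 2.54 and 2.9 CPM in shC and 0.947, 1.23, 0.611 and 0.427 CPM in shTAZ tumours. Ptprv, a phosphatase gene, read 3.75, 9.63, 3.81 and 6.15 CPM in shC and 3.16, 3.69, 1.22 and 2.14 CPM in shTAZ tumours.

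The members differed in what they are as genes. The rule did not name these features, but 26 lower and 7 higher members met its count limit only with shC tumour 1. Those members are included in the values that follow. Lower members were long: their median gene span was 42.2 kb (quartiles 20.3 and 72.9, n = 101) against 14.6 kb (5.8 and 29.8, n = 115) in higher members and 21.4 kb (9.2 and 49.2, n = 9318) over all genes at the count limit with a GENCODE match. The longest transcript had a median of 3647, 2340 and 2867 bases and a GC content of 48.5%, 55.1% and 51.9% in the same order. The libraries differed in these features as well: the median deviation of the 25% of genes richest in GC minus that of the 25% poorest in GC, in log2(CPM + 1), was -0.394, 0.105, -0.254 and 0.078 in shC and 0.148, -0.033, 0.013 and 0.278 in shTAZ tumours. For the longest against the shortest gene spans it was 0.234 in shC tumour 1 and between -0.142 and 0.083 in the other 7 tumours. The part of GC content and length in the separation was not tested.

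Nearly all members were also measured in cultured 4T1 cells and so could come from the tumour cells. Of the 217, 198 (91.2%) were listed for the cultures, compared with 93.4% of the 9348 genes, 193 of them at a mean of at least 1 CPM and 168 at a mean of at least 5 CPM. By direction, 105 of 116 higher and 93 of 101 lower members were listed. Being listed does not say which cells gave the reads in a tumour.

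The 19 members not listed included the leading genes of both directions. Among the 11 higher ones were Fcrls, Clec4a1, Siglec1, Rac2, Hcls1, Hfe, the iron regulator of the MHC class I family, and Slc13a3. The 8 lower ones were Ibsp, Adamdec1, Nid1, Clip3, Sgce, Ptprv, Ppic, a cyclophilin, and Ufl1, a ligase for UFM1. A further 5 were listed below 1 CPM, namely Maf, Itgae and Pou2f2 among the higher and Epn2 and the urate oxidase gene Uox among the lower. Epn2 stood out with 113 to 188 CPM in the tumours and 0.348 CPM in the cultures, and Moxd1, a monooxygenase-like protein, with 24.4 to 195 CPM in tumours and 11.2 CPM in cultures.

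**Figure D4:**
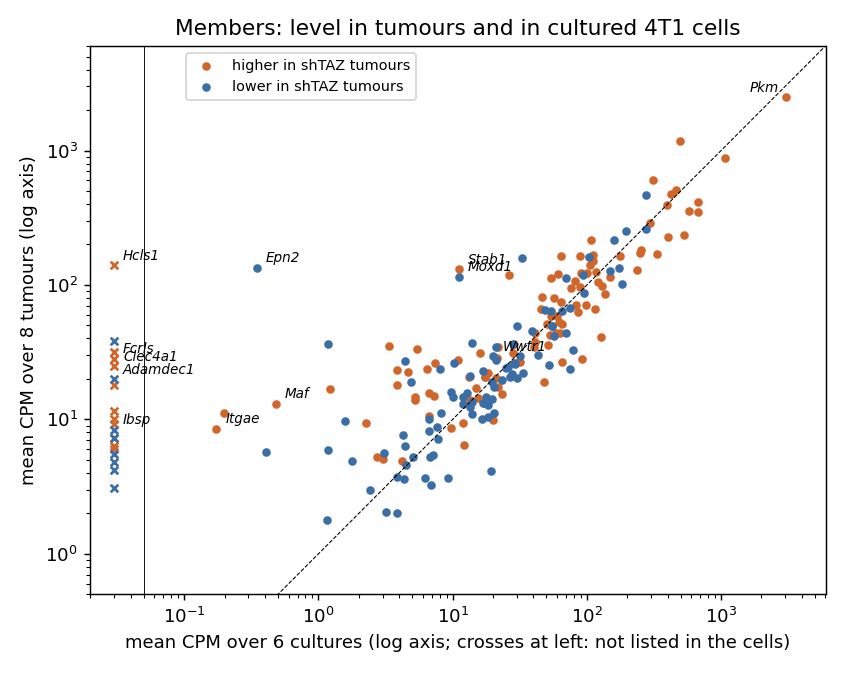
Mean CPM over the 8 tumours (y) against mean CPM over the 6 cultures (x), both log axes, for the 217 members; crosses left of the line are the 19 members not listed for the cultures. Most points follow the dashed line of equal level, while Fcrls, Clec4a1, Adamdec1, Ibsp, Hcls1, Itgae, Maf and Epn2 sit far to its left.

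The cultures gave little of the same pattern. Of 190 members tested there, 108 had the same direction as in the tumours, 60 of 101 higher members (59.4%) and 48 of 89 lower members (53.9%), beside 48.9% of all 9828 genes above and 51.1% below 0. The median log2 fold change in cells was 0.05 for the higher and -0.03 for the lower members. With 1 culture left out at a time 89 to 106 members had the same direction. Apart from Wwtr1 no member passed the threshold. At an unadjusted p under 0.05 in the edgeR test were 9 of the 190 members, 4 higher and 5 lower, beside 3.93% of all 9828 genes.

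Separation in the cultures was about as common among members as among all genes. In the same direction 2 of 101 higher members (1.98%) and 3 of 89 lower members (3.37%) separated, against 2.70% and 2.96% of the 9828 genes. Ints3, a subunit of the Integrator complex, was at 117, 109 and 110 CPM in shC and 137, 135 and 118 CPM in shTAZ cells, after 105, 105, 94.5 and 79.3 against 119, 111, 106 and 125 CPM in tumours. Afg3l1, a mitochondrial protease gene, was at 45.1, 46.3 and 48.7 against 59.8, 57.6 and 49.4 CPM in cells, after 34.6, 34.7, 30.1 and 34.4 against 36, 38.9, 35.4 and 40.6 CPM in tumours. Both differences were small in cells, with log2 fold changes of 0.18 (SE 0.20) and 0.23 (SE 0.23).

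Besides Wwtr1, Abcd3 and Ddx18 were lower in both settings. Abcd3, the peroxisomal importer of branched fatty acids, was at 24.3, 22.4 and 20.9 CPM in shC and 9.49, 16.3 and 16.8 CPM in shTAZ cells (log2 fold change -0.60, SE 0.31), and at 22.1, 9.63, 11.4 and 12.3 against 6, 8.19, 7.33 and 6.41 CPM in tumours. Ddx18, a nucleolar RNA helicase, was at 33, 39.2 and 30 against 15.2, 27.1 and 27.1 CPM in cells (-0.50, SE 0.29), and at 31.2, 38.5, 25 and 31.5 against 18.9, 19.3, 22.6 and 24.8 CPM in tumours. Neither passed the threshold in the cells (edgeR adjusted p = 1 for each). Slc4a11 went the other way, with 16.5, 11.6 and 11.4 CPM in shC and 20.4, 19.6 and 21.7 CPM in shTAZ cells (0.64, SE 0.31), as did Ppif, Pgs1, Cdk5rap2 and Aldh6a1. In all, 3 of 101 higher and 2 of 89 lower members tested in the cells separated in the opposite direction. Itgae did so too, but lay below 1 CPM in the cultures and is not in this count.

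**Figure D5:**
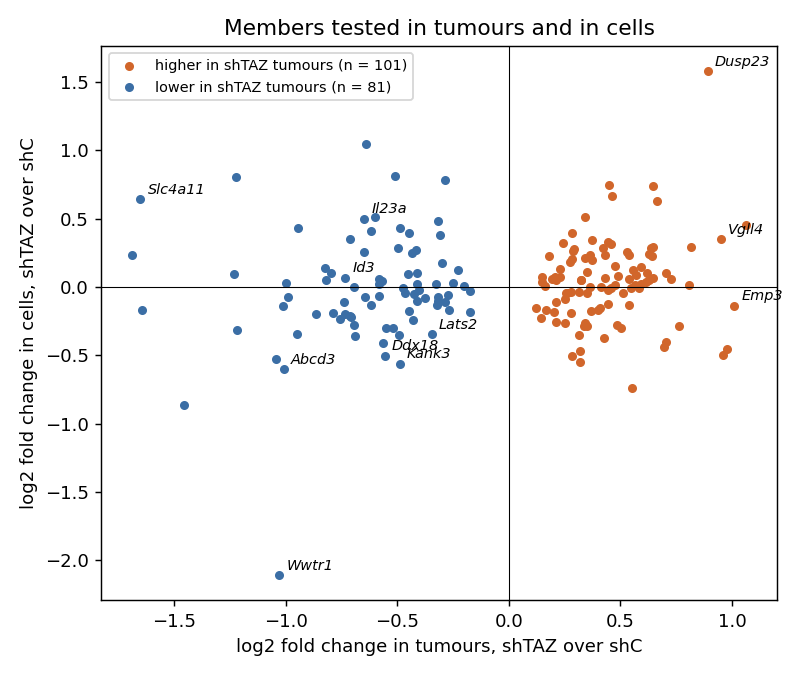
Log2 fold change in cells (y) against that in tumours (x) for the 182 members fitted in both, 101 higher (orange) and 81 lower (blue) in shTAZ tumours. The gap around 0 on the x axis follows from how the members were chosen; on the y axis both colours spread around 0, and Wwtr1 lies alone at -2.11.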

How the data were processed

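RNA of 8 tumours (4 shC, 4 shTAZ) and 6 cultures (3 shC, 3 shTAZ) was profiled by bulk MARS-seq, and the groups follow the sample names in the labels. The authors trimmed reads with cutadapt, mapped them to GRCm38 with STAR, counted them per gene with HTSeq and deposited raw counts, the unit used here; whether strand or molecular identifiers entered the counting is not given in the sources used here. The tables also hold 34 per-sample columns of normalized, log-transformed or batch-corrected values and the authors' fold changes and p-values, none of which were used.

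Analyses ran in R 4.3.3. Counts passing filterByExpr were TMM-normalized and fitted with edgeR 4.0.16 (quasi-likelihood F test, Benjamini-Hochberg adjustment over all genes, threshold 0.05), and the fit for cultures held 1 surrogate variable (svaseq, sva 3.50.0, on TMM-normalized counts). DESeq2 1.42.0 was an alternative. Each SE was taken as the size of the fitted change over the root of its F statistic. CPM used TMM library sizes, with a prior count of 2 in log2 CPM. The scripts were tested on simulated data. Members and lists were chosen with earlier results of these data known. Every member may be named; all samples' values are given for Wwtr1, the 12 largest changes, 4 highest levels and 4 steadiest members per direction, members just inside the limits, members of the fixed gene lists, and those separated in the same direction or past the threshold in the cultures, and for some others chosen after their values were seen. Gene families counted by symbol (Slc, Mrp and ribosomal protein genes) are not among those lists, and their members may be given by fold change or count alone. Some members are not reported here. The p-values measure the spread between these samples, since nothing says whether the cultures were grown separately.

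Same-numbered cultures deviated together (correlations 0.315, 0.18 and 0.596), so blocked values are given for them. Symbols were matched between the tables directly (10684) or through RefSeq synonyms (440). Alternatives were other scalings, count limits, filters, blocks and leaving out each library. Total counts ran from 1659736 to 22364483 in tumours and from 2243071 to 14815813 in cultures. Exons of 13 members overlap another gene on the same strand and those of 52 on the opposite strand; Mir705, Gm5595, Gm6548, Eif2s3x and Rbmxl1 may share reads with copies or host genes.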

Additional observations from a re-analysis of the deposited data

Results flagged for a closer look

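In 34 of the 434 groups of 4 tumours (217 members, 7.83%), 1 tumour lay far from the other 3. This was judged by its gap to the nearest tumour over the range of the group. The limit used is passed by about 1 in 20 groups of unselected, normally distributed values. The groups here were chosen on the same values, so no excess over chance can be read from their share. The 34 were 22 groups of shC and 12 of shTAZ tumours, in 33 members. Each value below is followed by that of the nearest tumour.

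In shC tumour 1 the highest values were those of Nt5c3 (18.9 CPM, next 13.4), Ube2d1 (33.93, next 22.88), Sec63 (29.22, next 16.85), Magt1 (28.84, next 13.75), 1810011O10Rik (173.2, next 71.19), Aldh6a1 (6.988, next 3.438), Map4k5 (10.95, next 3.62) and Stk38l (6.273, next 1.695), all lower members. In the same tumour Exosc5 (82.22 CPM, next 129.7), Prelid1 (348.2, next 459), Prr13 (125.1, next 161.6) and Taf10 (143.9, next 177.1), all higher members, were lowest.

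In shC tumour 2, Sgce (13.75 CPM, next 5.509), Rasl11b (14.44, next 5.069) and Clip3 (24.41, next 6.879) were highest and Tomm20 (3.438, next 5.793) lowest. In shC tumour 3, Afg3l1 was lowest (30.09 CPM, next 34.39) and Ap3m2 highest (5.932, next 4.814). In shC tumour 4, Emp3 was lowest (227 CPM, next 435.5), and Spn (30.77, next 22.88), Commd1 (162.2, next 130.5) and Gprc5a (107.2, next 45.73) were highest.

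In shTAZ tumour 1, Trim47 (214.1 CPM, next 188.8) and Orai2 (18.95, next 14.1) were highest and Spef1 (11.37, next 15.57) lowest. In shTAZ tumour 2, Nop16 (92.98 CPM, next 76.97) and Prdm2 (29.08, next 21.38) were highest and Nbeal2 (42.19, next 56.2) lowest. In shTAZ tumour 3, Fbxo7 was highest (42.76 CPM, next 36.31) and Ubxn4 lowest (28.71, next 33.32). In shTAZ tumour 4, Ncoa2 was highest (5.553 CPM, next 3.054), and Tcf19 (25.63, next 35.23), Nt5c3 (8.97, next 11.68) and Gfpt1 (17.09, next 22.6) were lowest.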

How the results depend on the processing

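Of 46 members refitted in 14 other ways each (644 values), 4 came under the threshold, the DESeq2 calls of Fcrls, Clec4a1, Adamdec1 and Ibsp. That 0 reversed is no sign of stability, since the choice of members fixes the direction with tumours left out and within FG or FM. DESeq2 called 4 tumour genes, and edgeR called 0 under every setting tried, including without each tumour and with the replicate number as a block, although in tumours the number pairs nothing (correlations 0.217, 0.125, 0.322 and -0.0106). Separated genes numbered 169 to 296 higher and 147 to 352 lower with 1 tumour left out, where fewer values must be ordered; 134 and 97 with RLE size factors, 87 and 127 with total counts, 127 and 117 at a mean count of 10, 99 and 74 at 50, 113 and 72 with at least 10 counts in every library, and, chosen after seeing the data, 109 and 75 with the mean count over the 7 tumours other than shC tumour 1. In the cultures the 1 gene past the threshold became 5 with DESeq2, 3 without a filter, 4 with at least 10 counts in every library, 6 with the replicate block, 0 without the surrogate variable and 0 to 1 with 1 culture left out; the cause was not tested. Members with the same direction numbered 108 of 190 in the main fit and 116 of 190 with the block. They were 89 to 106 of 190 with 1 culture left out. With other members tested they were 86 of 157 (at least 10 counts in every library) and 109 of 198 (no filter). The remaining settings gave 107 to 112 of 190. Depth limits the low members: a read is worth up to 0.611 CPM.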
